A study of Saccharomyces cerevisiae with 34 samples.

Results

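The non-coding RNA genes of budding yeast were followed through 34 RNA-seq libraries of *Saccharomyces cerevisiae*. A gene was included when its identifier in the count tables lacked the systematic form of an open reading frame name (the letter Y, a chromosome letter, an arm letter and a number), whatever its measured level. This rule took 57 of the 6209 genes in the tables. They were 19 box C/D small nucleolar RNAs (snoRNAs), 25 box H/ACA snoRNAs, 3 spliceosomal RNAs (U1, encoded by snR19, U2, encoded by LSR1, and U4, encoded by snR14), 4 other ribonucleoprotein (RNP) RNAs (RPR1, NME1, SCR1 and TLC1) and 6 long or unclassified RNAs (ICR1, SRG1, HRA1, RNA170, RUF20 and RUF21). The snoRNA class was taken from a chosen list and matched the gene description in the files for 44 of 44 snoRNAs.

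The study asked how overexpressed and mislocalized CENP-A/Cse4, the centromeric histone H3 variant, alters transcription. Its groups were WT, *psh1Δ* (lacking the ubiquitin ligase that targets Cse4 for proteolysis), *htz1Δ* (lacking the histone variant H2A.Z), *pGAL-3Flag-CSE4*, which carries tagged Cse4 under a galactose promoter, the double mutant *psh1Δ pGAL-3Flag-CSE4*, and *pGAL-H3* (histone H3 under that promoter). All strains were Rad5+ and grew in log phase at 23 °C in YEP with lactic acid, and each culture was sampled before galactose (t0) and 2 h after its addition to 2% (t2). The 17 cultures fell into 3 batches named in the labels, with a different strain for each genotype in each batch, so strain and batch cannot be told apart. Batch 1 had 5 cultures, because *pGAL-3Flag-CSE4* was grown only in batches 2 and 3, and batches 2 and 3 had 6 cultures each. The extra copy of the histone gene is under a promoter that galactose switches on, so t0 samples of these strains hold the construct uninduced.

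SnoRNAs are short nuclear RNAs that guide proteins to ribosomal RNA by base pairing. Box C/D RNAs direct 2′-O-methylation and box H/ACA RNAs direct pseudouridylation, while a few members, such as U3 and snR30, are needed to cut the precursor of ribosomal RNA. RPR1 and NME1 are the RNA subunits of the endonucleases RNase P and RNase MRP, SCR1 is the RNA of the signal recognition particle, and TLC1 is the telomerase RNA that carries the template for telomere repeats. The mature forms of most of these RNAs have no long poly(A) tail, whereas the library kit selects polyadenylated RNA and does not mark strand, so a count here is the tailed or captured fraction of an RNA and not its amount in the cell. In bulk cultures, fewer cells that express a gene and less RNA per cell cannot be told apart.

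The snoRNA sequences below mark, where found, the boxes that define the classes. They come from members whose counts differed between batches or times in the results that follow. They are the genes' own strand, 5′ to 3′, read from RefSeq assembly R64, which carries the sacCer3 coordinates used in the tables. In the box C/D genes capitals mark an exact C box (TGATGA) within the first 30 bases and an exact D box (CTGA) within the last 30. SnR63 lies at chrIV:323217-323471 on the minus strand, snR60 at chrX:349130-349233 on the minus strand, and snR24 at chrXIII:499984-500072 on the minus strand, inside an intron of ASC1. SnR24 had the D box but no exact C box in this window.
snR63: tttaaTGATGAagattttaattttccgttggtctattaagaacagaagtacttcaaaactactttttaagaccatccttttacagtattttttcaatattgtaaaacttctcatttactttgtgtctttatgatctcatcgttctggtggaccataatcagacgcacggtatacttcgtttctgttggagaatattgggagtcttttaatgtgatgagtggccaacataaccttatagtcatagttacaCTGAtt
snR60: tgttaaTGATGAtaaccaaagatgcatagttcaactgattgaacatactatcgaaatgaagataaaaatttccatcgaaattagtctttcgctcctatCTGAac
snR24: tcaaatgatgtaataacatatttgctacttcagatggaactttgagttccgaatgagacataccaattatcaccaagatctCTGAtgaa
An exact C box was found in 12 of 19 box C/D genes (63.2%), in 1 of 25 box H/ACA genes (4.0%) and in 91 of 6152 genes with open reading frame names (1.48%), whose windows were the ends of the annotated gene. A D box was found in 18 of 19 box C/D genes (94.7%), in 2 of 25 box H/ACA genes (8.0%) and in 797 of the 6152 others (13.0%). Both were found in 12 box C/D genes and in 9 of the 6152 others (0.146%). Only the gene's own strand was counted in these shares. On the other strand of the 6152 genes the C box stood in 1.28% and the D box in 7.59%, and the C box and D box share the letters TGA and may overlap.

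Mature box H/ACA RNAs carry the trinucleotide ACA near their 3′ end. It is in capitals where it fell within the last 10 bases of the annotated gene. SnR35 lies at chrXV:759326-759529 on the minus strand, snR8 at chrXV:832332-832521 on the plus strand, and snR44 at chrXII:856710-856920 on the plus strand, inside an intron of RPS22B. The annotated ends of snR8 and snR44 held no ACA in this window.
snR35: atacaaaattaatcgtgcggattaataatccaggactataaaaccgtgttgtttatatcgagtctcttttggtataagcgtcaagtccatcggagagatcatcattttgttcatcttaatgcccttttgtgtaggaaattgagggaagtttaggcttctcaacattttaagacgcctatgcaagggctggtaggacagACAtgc
snR8: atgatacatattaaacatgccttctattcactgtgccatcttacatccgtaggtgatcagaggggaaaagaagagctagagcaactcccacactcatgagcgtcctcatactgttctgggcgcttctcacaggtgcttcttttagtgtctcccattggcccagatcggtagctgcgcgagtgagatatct
snR44: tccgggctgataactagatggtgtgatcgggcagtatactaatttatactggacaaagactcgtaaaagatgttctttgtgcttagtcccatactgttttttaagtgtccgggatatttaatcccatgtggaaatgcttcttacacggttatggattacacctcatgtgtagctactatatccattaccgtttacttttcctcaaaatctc
ACA stood within the last 10 bases in 16 of 25 box H/ACA genes (64.0%), in 4 of 19 box C/D genes (21.1%) and in 534 of the 6152 others (8.68%), on the gene's own strand. These matches are a description of the annotated ends.

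The template of the telomerase RNA TLC1 stretch is shown because it is the member with the most counts behind it. The gene lies at chrII:307587-308887 on the plus strand, and the stretch is chrII:308024-308102. Capitals mark the longest run of only A and C in the RNA, 19 bases at RNA positions 468 to 486, which contains the template for telomere repeats. The next longest such run was 7 bases.
TLC1: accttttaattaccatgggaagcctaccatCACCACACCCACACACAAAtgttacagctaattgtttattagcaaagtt

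Library totals over the 6209 genes ranged from 5258139 to 6836827 counts (median 5852828), and the deletions matched their labels. HTZ1 counts were 556 to 837 in the 28 libraries with the gene and 0 to 2 in the 6 *htz1Δ* libraries, and PSH1 had 0 to 3 counts in the 12 libraries with *psh1Δ* and 165 to 330 elsewhere. CSE4 rose to between 10830 and 21978 CPM at t2 in the 5 libraries with the galactose construct. One library stood apart in SCR1. SCR1 had 298 counts in the t0 library of *pGAL-3Flag-CSE4* in batch 2 and 21 to 93 in the other 33. Counts of called members in the comparisons that hold this library are therefore given with and without it. Medians and sums over the members include it. At t0 the batch 1 cultures of *psh1Δ* and *psh1Δ pGAL-3Flag-CSE4* were high in HRA1 and snR18, both on chromosome I. HRA1 had 22 and 31 counts there (3 to 16 in the other t0 libraries) and snR18 34 and 17 (0 to 16). DRS2, opposite HRA1, had 165 and 187 CPM (68.9 to 96.6). EFB1, the host of snR18, had 2202 and 2364 CPM (1167 to 1859). At t2 EFB1 had 2501 and 3031 CPM in these cultures (1582 to 1984 in the others) and DRS2 178 and 129 CPM (69.3 to 109). HRA1 had 12 and 14 counts there (4 to 15) and snR18 45 and 13 (6 to 21). Batch and time values of HRA1 and snR18, and those of these 2 genotypes, include these cultures.

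The 57 members together took 0.0214 to 0.0367% of the counts of a library (median 0.0266%). Box H/ACA snoRNAs held 38.3% of the members' counts, the RNP RNAs 30.4%, the long RNAs 13.3%, box C/D snoRNAs 9.45% and the spliceosomal RNAs 8.53%. Counts were low for most. The median count was under 10 in 29 of 57 members and over 50 in 8, and 20 members had 0 counts in at least 1 library, where 3 counts correspond to 0.439 to 0.571 CPM (counts scaled to a common library size, a limit that covers counting error only). TLC1 had 212 to 599 counts per library (median 396) and made up 16.1 to 32.8% of all member counts.

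Levels between genes were compared per length, as mean CPM per kilobase of gene over the 34 libraries. TLC1 was highest at 52.5 CPM per kb, followed by the H/ACA guides snR31 at 44.8 and snR44 at 42.5, the C/D RNA snR4, a guide for acetylation of ribosomal RNA, at 38.3, and the H/ACA RNA snR9 at 34.3. The lowest were RUF21 at 1.06, the H/ACA RNAs snR81 at 2.20 and snR189 at 2.26, and snR17a, 1 of the 2 genes for U3, at 2.58. The median per length was 8.47 in the H/ACA class, 5.03 in the C/D class, 9.58 in the spliceosomal RNAs, 12.7 in the RNP RNAs and 6.01 in the long RNAs, against 41.2 over the genes with open reading frame names. Classes overlapped across their whole ranges, 2.58 to 38.3 in C/D and 2.20 to 44.8 in H/ACA. Median lengths were 109 nt in C/D, 204 nt in H/ACA, 445.5 nt in the RNP RNAs, 557.5 nt in the long RNAs and 568 nt in the spliceosomal RNAs. Whether reads are captured in proportion to length in genes this short was not tested.

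**Figure D1:**
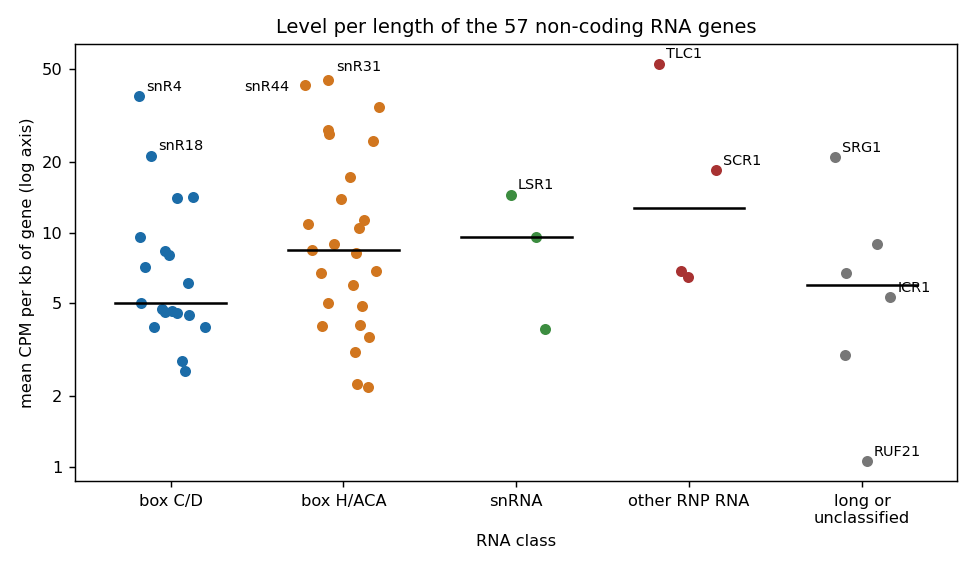
Mean CPM per kilobase of gene over 34 libraries (vertical log axis) for each of the 57 members, 1 point per gene, by RNA class, with a line at the class median. TLC1 is highest at 52.5 and RUF21 lowest at 1.06, and the C/D and H/ACA classes overlap.

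Some members share sequence with a neighbour, and a count without strand cannot assign such reads. HRA1 (chrI:99305-99868) lies opposite DRS2 over 393 nt. ICR1 (chrIX:393884-397082) shares 303 nt with YIR020C on its own strand and 941 nt with PWR1 on the other. SRG1 (chrV:322212-322762) runs into SER3 over 77 nt. SnR17a shares 78 nt with IRC13 and snR60 shares 49 nt with YJL047C-A. The 2 U3 genes are near-identical copies, with 91.8% (snR17a) and 91.3% (snR17b) of 50-base windows unique in the genome, so their separate values are uncertain. Reads from snR18 (host EFB1), snR24 (ASC1), snR44 (RPS22B) and snR191 (NOG2) lie in introns and were not separated from those of unspliced host RNA.

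The first comparison asked how far the members differed between batches before galactose. At t0, 17 of 57 members were higher in batch 3 than in batches 1 and 2 and 0 were lower (edgeR's quasi-likelihood test with genotype in the fit, where a call needed an adjusted p under 0.05 by Benjamini-Hochberg and a difference of at least 1.5-fold). That is 29.8% of the members called higher, where 2.24% of all 6209 genes were called higher, 3.12% lower and 5.36% either way. The called members were 7 of 19 C/D snoRNAs, 8 of 25 H/ACA snoRNAs, and TLC1 and NME1 among the 4 RNP RNAs, with 0 of 3 spliceosomal and 0 of 6 long RNAs. The log2 difference was above 0 in 42 of 57 members, with a median of 0.36, against a median of −0.01 over all genes. Without the limit on fold, 20 members were higher and 3 lower at the same adjusted p, where 18.1% of all genes were higher and 19.7% lower. An unadjusted p under 0.05 was found in 29 of 57 members (50.9%) and in 45.6% of all genes. Without the *pGAL-3Flag-CSE4* t0 library of batch 2, 18 members were higher and 3 were lower.

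TLC1, the telomerase RNA, had 53.7, 53.8, 55.1, 62.5 and 42.7 CPM in the 5 t0 libraries of batch 1 (WT, *psh1Δ*, *psh1Δ pGAL-3Flag-CSE4*, *htz1Δ* and *pGAL-H3*). It had a lowest value of 38.5, a median of 41.8 and a highest of 47.7 CPM in the 6 of batch 2, and 65.2, 79.2 and 93.1 CPM in the 6 of batch 3. Every batch 3 library lay above every library of the other batches, and batch 3 was higher within each of the 6 genotypes (against batch 2 alone for *pGAL-3Flag-CSE4*). The log2 difference was 0.72 ± 0.08 (SE, n = 6 and 11, edgeR adjusted p = 5.67e-06). NME1, the RNase MRP RNA, differed by 0.65 ± 0.23 (edgeR adjusted p = 0.0374). Its values overlapped, with 0.54, 1.51 and 2.36 CPM (lowest, median, highest) in batches 1 and 2 and 1.48, 2.31 and 3.54 CPM in batch 3. RPR1, the RNase P RNA, had a log2 difference of 0.19 ± 0.25 that did not pass (edgeR adjusted p = 0.581).

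SCR1 had 4.01, 5.19 and 50.1 CPM in batches 1 and 2 at t0 and 7.10, 8.54 and 11.1 CPM in batch 3. The highest value is the library named above. With that library the log2 difference was 0.00 ± 0.33, and without it 0.57 ± 0.15 (edgeR adjusted p = 0.00748), just under the limit on fold.

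Among the C/D snoRNAs, snR63, a methylation guide for the large ribosomal subunit, had 0.34, 0.97 and 1.94 CPM (lowest, median, highest) in the 11 t0 libraries of batches 1 and 2. It had 1.94, 3.29 and 4.10 CPM in the 6 of batch 3. The ranges met at 1.94 and batch 3 was higher in 6 of 6 genotypes, with a log2 difference of 1.65 ± 0.25 (edgeR adjusted p = 8.55e-05). SnR17b, the second U3 gene, had 0.17, 1.07 and 2.69 CPM against 1.12, 2.55 and 4.43 CPM in batch 3, a log2 difference of 0.86 ± 0.30 (edgeR adjusted p = 0.0344), higher in 5 of 6 genotypes. SnR4, the acetylation guide, had 3.43, 5.75 and 8.21 CPM against 8.29, 9.32 and 11.8 CPM, without overlap, a log2 difference of 0.65 ± 0.15 (edgeR adjusted p = 0.00359). SnR39B, whose annotation here places it in no intron, differed by 1.35 ± 0.43 (edgeR adjusted p = 0.0207) on 22 counts in batch 3 and 19 in the others, a ratio of 2.29 with an exact 95% counting interval of 1.18 to 4.47.

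The methylation guide snR60 shows how few reads some of these calls rest on. It had 33 counts in the 6 libraries of batch 3 and 12 in the 11 others, none of which held more than 3, a pooled ratio of 5.44 with an exact 95% counting interval of 2.74 to 11.6. The fitted log2 difference of 2.34 ± 0.45 depends on the prior count at such levels. SnR13, also a methylation guide, had 26 counts against 15, a ratio of 3.43 with an interval of 1.75 to 6.96. SnR45, which like snR4 guides acetylation, completed the called C/D members with a log2 difference of 1.39 ± 0.28. The other named C/D members did not pass. U14 (snR128) and its gene cluster partner snR190 had log2 differences of 0.56 ± 0.29 and 0.39 ± 0.48, the other U3 gene snR17a −0.17 ± 0.39, and the intronic snR18 and snR24 0.09 ± 0.26 and −0.05 ± 0.50.

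Among the H/ACA snoRNAs, snR35, a pseudouridylation guide for the small ribosomal subunit, had 1.19 to 1.62 CPM in batch 1, 0 to 1.01 CPM in batch 2 and 1.52 to 2.58 CPM in batch 3. Batch 3 was higher in 6 of 6 genotypes, with a log2 difference of 1.11 ± 0.25 from the mean of the other batches (edgeR adjusted p = 0.00208). SnR37, a guide for the large subunit, had 0.36, 0.97 and 1.29 CPM in batches 1 and 2 and 1.18, 1.90 and 2.55 CPM in batch 3, a log2 difference of 0.99 ± 0.22 (edgeR adjusted p = 0.00214). The ranges of both overlapped only at their edges. SnR8, another guide for the large subunit, had 0.90, 2.23 and 3.27 CPM against 2.36, 4.05 and 7.64 CPM, a log2 difference of 0.86 ± 0.16 (edgeR adjusted p = 0.000479).

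SnR30 acts in cutting the ribosomal RNA precursor and not in modification, and it lay apart in batch 3. It had 5.16, 7.79 and 10.4 CPM in batches 1 and 2 and 10.9, 12.9 and 15.0 CPM in batch 3, without overlap, a log2 difference of 0.69 ± 0.11 (edgeR adjusted p = 0.000152). SnR44, the guide in the RPS22B intron, had 3.72, 6.16 and 7.61 CPM against 7.19, 9.003 and 15.9 CPM, a log2 difference of 0.74 ± 0.13 (edgeR adjusted p = 0.000328). The other called H/ACA members were snR49 (1.24 ± 0.33), snR5 (0.98 ± 0.28) and snR83 (0.75 ± 0.23) on the log2 scale. SnR191, the guide in the NOG2 intron, had −0.74 ± 0.38 and did not pass. SnR86, the second most counted member, had 20.6, 24.7 and 27.2 CPM against 29.7, 32.0 and 37.1 CPM, and although the ranges did not overlap the log2 difference of 0.41 ± 0.08 was under the limit on fold.

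**Figure D2:**
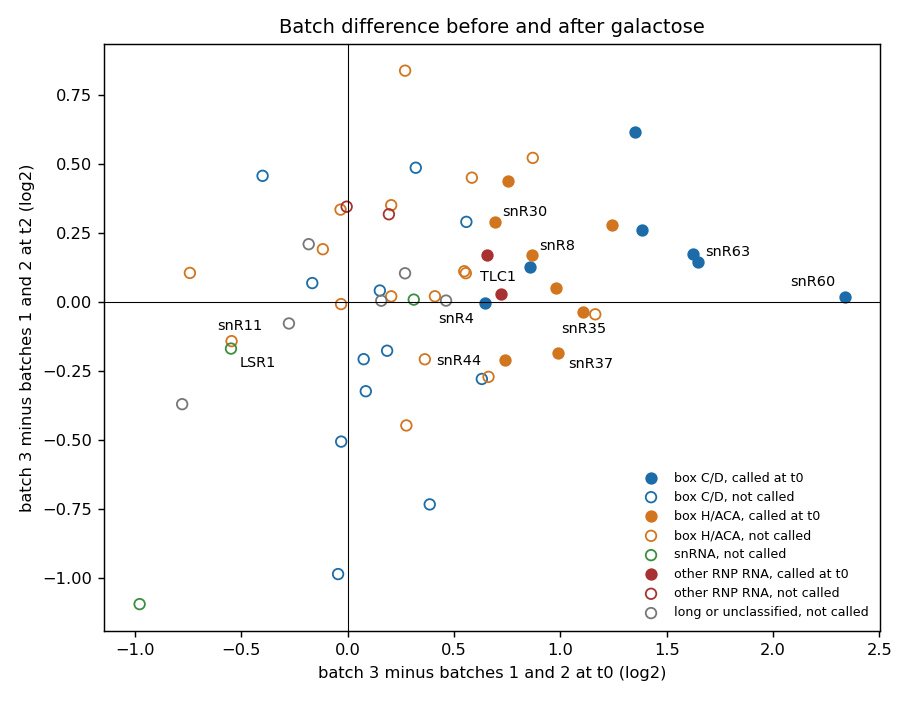
Log2 difference of batch 3 from batches 1 and 2 at t0 (horizontal axis) and at t2 (vertical axis) for the 57 members, coloured by class and filled where called at t0. The 17 filled points lie beyond a 1.5-fold difference on the horizontal axis, and no member was called at t2.

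Of the 9 spliceosomal and long RNAs, 0 were called and 4 had a log2 difference above 0. Whether the classes differ was not tested. LSR1, the U2 RNA, had 16.1, 19.8 and 25.5 CPM in batches 1 and 2 and 9.57, 14.6 and 21.2 CPM in batch 3, a log2 difference of −0.55 ± 0.09 (edgeR adjusted p = 0.0002) that was under the limit on fold. U1 (snR19) had 0.31 ± 0.18 and U4 (snR14) −0.98 ± 0.46, neither of which passed. The H/ACA RNA snR11 had 7.22, 8.95 and 10.3 CPM against 5.64, 5.82 and 7.10 CPM, without overlap, at −0.55 ± 0.09. Without the library that stood apart in SCR1, the log2 differences of LSR1, snR11 and snR14 were −0.59, −0.59 and −1.66 and all 3 were called lower. SRG1 had −0.28 ± 0.09, ICR1 0.16 ± 0.07, HRA1 −0.78 ± 0.34, RNA170 −0.18 ± 0.28, RUF20 0.27 ± 0.14 and RUF21 0.46 ± 0.39, of which only SRG1 had an adjusted p under 0.05 (0.0248).

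At t0, 4 members lay wholly above the other batches (TLC1, snR30, snR4 and snR86) and 1 wholly below (snR11), where 3.98% of all genes lay wholly above and 2.72% wholly below. Summed over the 57 members, the median level at t0 was 250.3 CPM in batch 1 (237 to 256), 218 in batch 2 (207 to 297) and 314 in batch 3 (282 to 322). The 297 CPM library of batch 2 is the one that stood apart in SCR1. The RNP RNAs moved most in this sum, with medians of 65.2, 50.4 and 93.3 CPM, and the long RNAs least, with 39.1, 37.4 and 38.1 CPM. TLC1 made up most of the RNP sum outside the library that stood apart in SCR1. The sum of the members without TLC1 had medians of 194, 178 and 225 CPM, and the H/ACA sum 98.1, 92.5 and 124 CPM. The called and other members differed little in median length (204 and 199 nt) and GC content (36.3 and 38.2%).

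Proteins that bind or process these RNAs gave no calls in this comparison, where 5.36% of all genes were called. An unadjusted p under 0.05 was found in 45.6% of all genes. Of 17 snoRNP and assembly proteins (such as NOP1, the methyltransferase, and CBF5, the pseudouridine synthase), 0 were called, with a median log2 difference of 0.13 and 9 at an unadjusted p under 0.05 in edgeR. Of 30 proteins of non-coding RNA termination, processing and decay (such as NRD1 and RRP6), 0 were called, with a median of 0.06 and 7 at an unadjusted p under 0.05. Of 20 protein subunits of RNase P and MRP, the signal recognition particle and telomerase, 0 were called, with a median of −0.06 and 4 at an unadjusted p under 0.05. Without the limit on fold, 8 of the 17 were higher and 1 lower at an edgeR adjusted p under 0.05. In the same test 5 of the 30 were higher and 0 lower, and 1 of the 20 was higher and 3 lower. Of all genes, 18.1% were higher and 19.7% lower.

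At t2 the batch difference fell short of a call in every member, and it was above 0 in 36 of 57. Between batch 3 and the others after galactose 0 of 57 members were called in edgeR or in DESeq2, and the median log2 difference was 0.04, while 0.209% of all genes were called. An unadjusted p under 0.05 was found in 6 members and in 19.5% of all genes. No member lay wholly above or below the other batches, where 0.113% of all genes lay wholly above and 0.0322% wholly below. TLC1 had 68.5 to 95.1 CPM in batch 1, 59.3 to 84.9 in batch 2 and 68.0 to 88.9 in batch 3. The median summed level was 290.5 CPM in batch 1 (259 to 352), 260 in batch 2 (229 to 285) and 286 in batch 3 (265 to 307).

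Whether the batch difference itself changed with time was tested by the interaction of batch and time over all 34 libraries. This fit had no term for culture, so the t0 and t2 libraries of a culture were treated as independent. The signed log2 difference of batch 3 was higher at t0 than at t2 in 7 of 57 members (12.3%, against 2.46% of all genes). It was lower at t0 in 0 members (3.21% of all genes), a direction that includes genes more negative in batch 3 at t0. Without the limit on fold, 8 members were higher and 1, a spliceosomal RNA, was lower at an edgeR adjusted p under 0.05. TLC1 had the lowest adjusted p of the 7, with a difference between the 2 log2 values of 0.70 (edgeR adjusted p = 0.000191), followed by snR44 with 0.95 (0.000466) and snR63 with 1.51 (0.00543). SnR60 had 2.31 (0.00784), snR37 1.18 (0.0162), snR35 1.15 (0.0199) and snR4 0.66 (0.0242), in the same test and with the same adjustment. Of the 17 members called at t0, 10 did not pass this test of the difference (NME1, snR5, snR8, snR13, snR17b, snR30, snR39B, snR45, snR49 and snR83). Leaving out each genotype in turn, only snR44 and snR63 were called every time. Without *pGAL-H3* the TLC1 value was 0.58 (adjusted p = 0.00183), under the limit on fold, and only snR37, snR44 and snR63 were called. Without *psh1Δ pGAL-3Flag-CSE4* only TLC1, snR44 and snR63 were called.

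**Figure D3:**
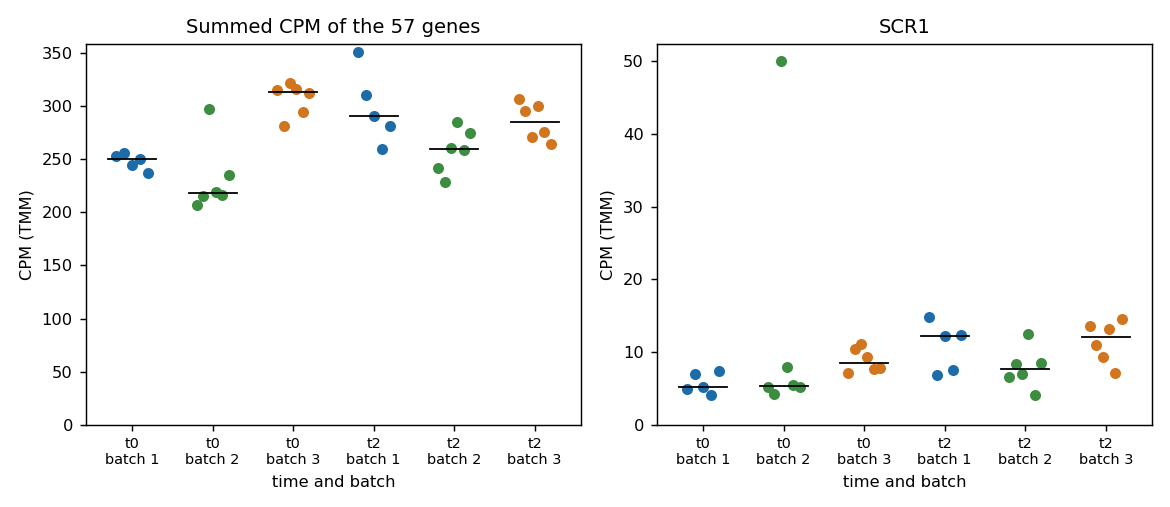
Summed CPM of the 57 members (left) and SCR1 in CPM (right) in each of 34 libraries by time and batch, 1 point per library and a line at the median. At t0 the batch 3 medians of the sum (314) lie above batches 1 and 2 (250.3 and 218), and 1 library of batch 2 stands apart in SCR1 at 50.1 CPM.

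Batches 1 and 2 differed from each other in few members. At t0, snR35 was lower in batch 2 (log2 difference −1.47, edgeR adjusted p = 0.0265) and 0 other members were called, where 0.209% of all genes were called lower and 0.483% higher. DESeq2 called 0 members here. The difference was above 0 in 16 of 57 members (median −0.22). Without the library that stood apart in SCR1, RUF21 was also called, higher in batch 2 at 1.71. At t2, 0 members were called in edgeR or DESeq2 (0.0161% of all genes), 11 had an unadjusted p under 0.05 (11.9% of all genes did), and the median was −0.24.

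The second comparison asked what changed from t0 to t2, with each of the 17 cultures as its own control. Between t0 and t2, 5 of 57 members rose and 0 fell (8.77%, where 3.24% of all genes rose, 3.69% fell and 6.93% changed either way). They were the C/D snoRNAs snR18, snR24 and snR63, the H/ACA snoRNA snR44 and the unclassified RUF21. Without the limit on fold, 9 members were higher and 5 lower, where 26.9% of all genes were higher and 28.0% lower. The median over the members was 0.07, against 0.00 over all genes. Without the library that stood apart in SCR1 only RUF21, snR18 and snR24 were called. Without batch 1 none of the 5 was called and snR45 and snR8 were called lower, without batch 2 there were 4 calls with 2 of the 5 among them (RUF21 and snR24), and without batch 3 there were 14 calls with 4 of the 5 among them.

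SnR24, the methylation guide in the ASC1 intron, had 0, 0.45 and 1.07 CPM (lowest, median, highest) at t0 and 0.32, 0.98 and 2.06 CPM at t2. It was higher at t2 in 12 of 17 cultures, with a log2 change of 1.02 ± 0.31 (edgeR adjusted p = 0.00737). SnR18, in the EFB1 intron, had 0, 1.52 and 4.74 CPM and then 0.98, 2.44 and 7.14 CPM, higher in 13 of 17, with 0.62 ± 0.23 (edgeR adjusted p = 0.0233). The ranges at both times overlapped for these and the other 3 members. SnR44 had 3.72, 6.59 and 15.9 CPM and then 6.06, 10.5 and 15.3 CPM, higher in 14 of 17, with 0.60 ± 0.15 (edgeR adjusted p = 0.00213). The hosts did not pass the limit on fold. EFB1, a translation elongation factor, changed by 0.25, ASC1 and RPS22B, which encode ribosomal proteins, by 0.25 and 0.16, and NOG2, a ribosome assembly GTPase, by 0.47, while its intronic snR191 had 0.24 ± 0.29.

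SnR63, which is in no intron, had 0.34, 1.27 and 4.10 CPM at t0 and 0.65, 2.55 and 4.28 CPM at t2, higher in 14 of 17 cultures, with a log2 change of 0.59 ± 0.21 (edgeR adjusted p = 0.0204). RUF21 had 0, 0.53 and 1.18 CPM and then 0.16, 0.82 and 2.31 CPM, higher in 13 of 17, with 0.81 ± 0.28 (edgeR adjusted p = 0.0191) on 54 and 89 counts in all. For snR63 the change lay in batches 1 and 2. It was up in 5 of 5 and 6 of 6 cultures there, with median changes of 1.20 and 0.91 in log2 of CPM plus 0.5, and in 3 of 6 in batch 3, with a median of −0.03.

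TLC1 had 38.5, 53.8 and 93.1 CPM at t0 and 59.3, 79.2 and 95.1 CPM at t2. Its log2 change of 0.44 ± 0.09 (edgeR adjusted p = 0.000365) was under the limit on fold. It was up in 15 of 17 cultures, with median changes in log2 of CPM plus 0.5 of 0.69 in the 5 of batch 1, 0.74 in the 6 of batch 2 and 0.04 in the 6 of batch 3. In the test without batch 3 it was called at 0.67.

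In the other direction, 5 members had an adjusted p under 0.05, below the limit on fold. The H/ACA RNA snR9 had 5.22, 7.95 and 9.99 CPM at t0 and 3.33, 5.37 and 7.13 CPM at t2, lower in 17 of 17 cultures, with a log2 change of −0.58 ± 0.08 (edgeR adjusted p = 6.67e-06). ICR1, whose transcription runs across the promoter of the adhesin gene FLO11 and represses it, had −0.32 ± 0.07, with 3 of 17 cultures up. LSR1 had −0.27 ± 0.10, snR11 −0.38 ± 0.11 and the pseudouridylation guide snR31 −0.24 ± 0.10. SCR1 had 0.32 ± 0.23 with all libraries and 0.56 ± 0.13 (edgeR adjusted p = 0.00103) without the library that stood apart.

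**Figure D4:**
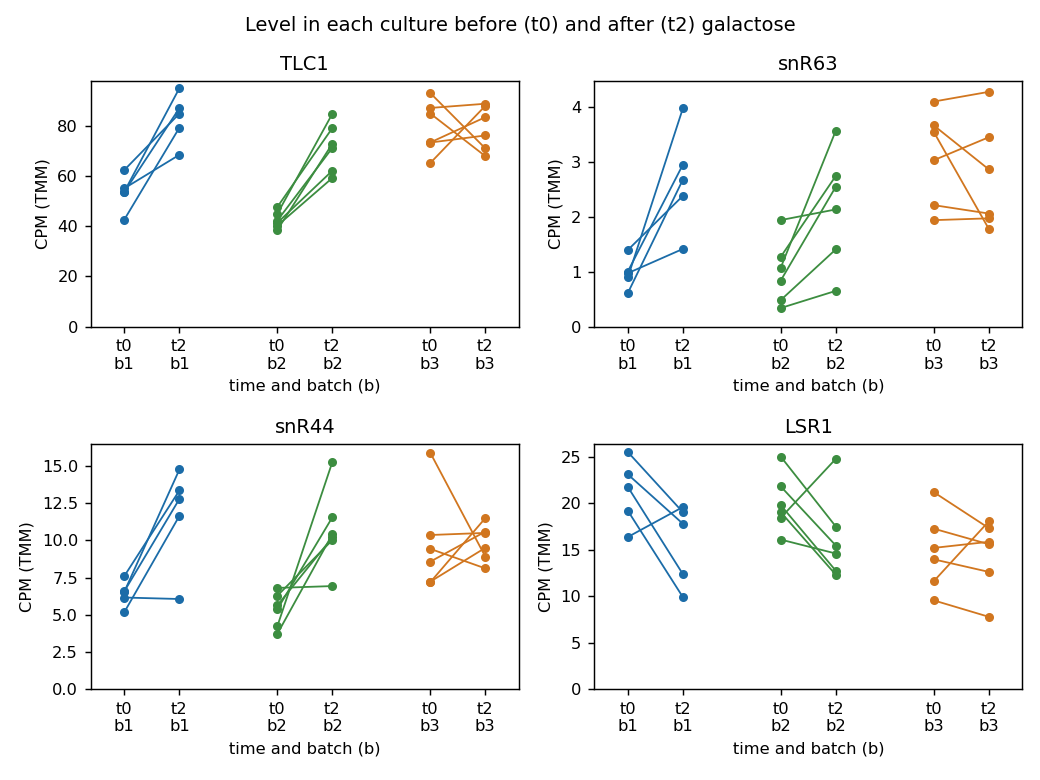
CPM at t0 and t2 (lines join the 2 libraries of a culture) for TLC1, snR63, snR44 and LSR1, by batch (b1, b2, b3) with 5, 6 and 6 cultures. TLC1 rises in all 11 cultures of batches 1 and 2 and in 4 of 6 in batch 3, where it starts between 65.2 and 93.1 CPM.

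Of the snoRNP and assembly proteins, 3 of 17 rose over the 17 cultures, NOP1 by 0.70, the C/D and U4 binding protein SNU13 by 0.62 and the H/ACA assembly factor NAF1 by 0.61 on the log2 scale. The median of the list was 0.39. Set beside these, 3.24% of all genes rose and 59.3% had an unadjusted p under 0.05. Of the 30 proteins of termination, processing and decay 0 were called, with a median of 0.24 and 27 at an unadjusted p under 0.05 in edgeR, and of the 20 other RNP proteins 0 were called, with a median of 0.10 and 10 at an unadjusted p under 0.05. SER3, the serine biosynthesis gene that SRG1 transcription represses, rose by 1.19, while SRG1 had 0.08 ± 0.10. SER3 was up in 5 of 5 and 6 of 6 cultures of batches 1 and 2 (median changes of 1.26 and 1.28 in log2 of CPM plus 0.5) and in 3 of 6 of batch 3 (median 0.02). Its mean at t2 was 235 CPM in *psh1Δ pGAL-3Flag-CSE4* and 216 CPM in *htz1Δ*, against 59.3 to 69.4 CPM in the other 4 genotypes. In WT alone, 0 members were called between t0 and t2 in edgeR or DESeq2 (3.0% of all genes), 2 had an unadjusted p under 0.05 (25.2% of all genes did), and 47 of 57 were above 0 with a median of 0.29. These WT fits had no block, so the t0 and t2 libraries of a culture were treated as independent. With batch as a block, SCR1 was called higher in WT.

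The third comparison asked whether loss of H2A.Z altered the members. At t0, ICR1 was lower in *htz1Δ* than in WT and 0 other members were called (2.32% of all genes were lower and 0.66% higher). ICR1 had 19.7, 17.7 and 21.6 CPM in the 3 WT libraries (batches 1, 2 and 3) and 12.0, 10.9 and 13.4 CPM in *htz1Δ*. Every *htz1Δ* library lay below every WT library, with differences of −0.69, −0.68 and −0.67 within the 3 batches in log2 of CPM plus 0.5. The log2 difference was −0.69 ± 0.14 (n = 3 and 3, edgeR adjusted p = 0.04), and it was no longer called without batch 1 or without batch 2. With batch as a block 4 members were called, ICR1, snR17b (−1.57) and snR81 (−3.43) lower and snR8 (0.88) higher.

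At t2, ICR1 had 19.9, 19.0 and 14.9 CPM in WT and 7.08, 6.47 and 11.0 CPM in *htz1Δ*. The groups did not overlap, and the difference was −1.43 and −1.48 in batches 1 and 2 and −0.42 in batch 3 in log2 of CPM plus 0.5. The log2 difference of −1.13 ± 0.22 was called (edgeR adjusted p = 0.00582), and 3 of 57 members were lower in all (5.26%, where 3.93% of all genes were lower and 2.61% higher). Without batch 1 none of the 3 was called, and the ICR1 value was −0.96. Over all 57 members the log2 difference at t2 was above 0 in 20, with a median of −0.33 against −0.01 over all genes. The comparison of *psh1Δ* with the same WT libraries at t2 had a member median of −0.34. FLO11, downstream of ICR1, had 26.7 ± 0.89 CPM (SD, n = 3) in WT and 18.0 ± 2.33 CPM in *htz1Δ* at t2, a log2 difference of −0.57 (edgeR adjusted p = 0.015) under the limit on fold.

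The pseudouridylation guide snR37 (chrX:228094-228479, minus strand) had 28, 9 and 11 counts in WT at t2 and 2, 1 and 3 counts in *htz1Δ*, without overlap. The pooled ratio of *htz1Δ* to WT was 0.150 with an exact 95% counting interval of 0.0526 to 0.352, and edgeR's fitted log2 difference was −2.66 ± 0.63 (adjusted p = 0.016), a value that depends on the prior count. At t0 snR37 had a log2 difference of −0.02 ± 0.42. Without batch 1 or without batch 3 it was not called at t2. The U3 gene snR17b had 21, 9 and 22 counts in WT and 6, 5 and 6 in *htz1Δ* at t2, a pooled ratio of 0.393 with an interval of 0.213 to 0.691 and a log2 difference of −1.33 ± 0.41 (edgeR adjusted p = 0.0492). DESeq2 did not call it, nor did edgeR without batch 1, without batch 3 or in 1 fit of all 34 libraries. The other U3 gene, snR17a, had 0.06 ± 0.43. SCR1 had 14.8, 6.51 and 13.6 CPM in WT at t2 (batches 1, 2 and 3) and 7.47, 4.12 and 7.13 CPM in *htz1Δ*. The ranges overlapped, but *htz1Δ* was lower within each batch, with differences of −0.94, −0.60 and −0.89 in log2 of CPM plus 0.5. Its log2 difference of −0.91 ± 0.32 was not called (edgeR adjusted p = 0.078), whereas it was called lower with batch as a block (−0.88, adjusted p = 0.0121), in DESeq2 (−0.90, adjusted p = 0.0435) and without batch 2 (−0.96, adjusted p = 0.0152).

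**Figure D5:**
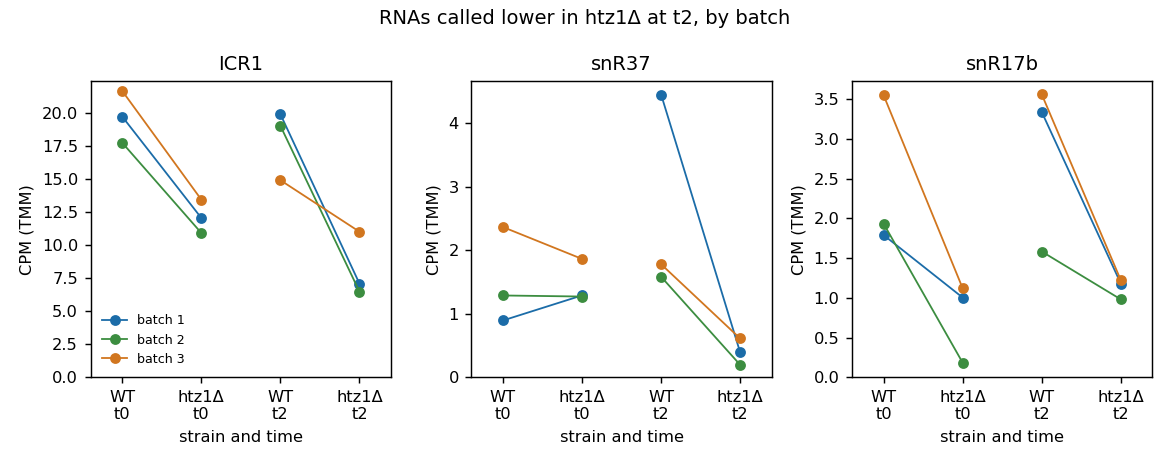
CPM of ICR1, snR37 and snR17b in WT and *htz1Δ* at t0 and t2, 1 point per library, with lines joining the 2 libraries of a batch at each time. ICR1 lies between 14.9 and 21.6 CPM in WT and between 6.47 and 13.4 CPM in *htz1Δ*.

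Members with no overlap between *htz1Δ* and WT numbered 5 higher and 6 lower at t0 and 1 higher and 6 lower at t2, where 13.9% and 15.4% of all genes lay higher and lower at t0, and 16.6% and 18.0% at t2. SRG1 had 0.23 ± 0.22 at t2 and was not called, while SER3 was higher in *htz1Δ* by 1.70, with 66.4 ± 21.5 CPM (SD, n = 3) in WT and 216 ± 18.1 CPM in *htz1Δ*. Of the 67 proteins in the 3 lists, 4 were called lower in *htz1Δ* at t0 (5.97%, where 2.32% of all genes were lower), the snoRNP factor BCD1 (−0.63), the polyadenylation complex subunit AIR1 (−0.80), the exosome subunit RRP40 (−0.81) and the RNase P and MRP subunit POP3 (−0.80), and 0 of these lists were called at t2.

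The remaining comparisons gave no called member, with medians below 0 in most of them. The summed level of the members in WT at t2 was 351.6, 241.6 and 306.6 CPM in batches 1, 2 and 3. The first of these is the highest of all 34 libraries, and the medians at t2 and of the changes are set against these WT libraries. In *psh1Δ* against WT 0 members were called at either time in edgeR and DESeq2, where 0.0161% of all genes were called at each. An unadjusted p under 0.05 was found in 1 member at t0 (2.75% of all genes) and in 2 at t2 (1.69% of all genes). The log2 difference was above 0 in 29 of 57 members at t0 (median 0.00) and in 16 of 57 at t2 (median −0.34, against 0.01 over all genes). TLC1 differed by −0.16 ± 0.28 at t0 and 0.12 ± 0.17 at t2. In the strains with a galactose construct the change over 2 h was set against the WT change. For *psh1Δ pGAL-3Flag-CSE4* 0 members were called (0.338% of all genes), for *pGAL-3Flag-CSE4* 0 (0.0161%) and for *pGAL-H3* 0 (0.0161%), in edgeR and in DESeq2. An unadjusted p under 0.05 was found in 1, 4 and 4 members of these strains in edgeR, and in 16.1%, 2.25% and 5.89% of all genes. The difference in change was above 0 in 23, 10 and 22 of 57 members in these strains, with medians of −0.20, −0.61 and −0.25, against medians of −0.01, 0.01 and 0.01 over all genes, and the 3 comparisons share the WT libraries. TLC1 had interaction values of −0.31 ± 0.43, −0.02 ± 0.41 and 0.05 ± 0.41 in these 3 strains, from a fit without a batch or culture block. By culture, the TLC1 change in log2 of CPM plus 0.5 was 0.69, 0.55 and 0.03 in WT (batches 1, 2 and 3), 0.31, 0.58 and −0.39 in *psh1Δ pGAL-3Flag-CSE4*, 0.73 and 0.05 in *pGAL-3Flag-CSE4* (batches 2 and 3) and 0.89, 0.91 and −0.32 in *pGAL-H3*. In each of these strains the batch 3 culture had the lowest value. SCR1 had −2.95 in *pGAL-3Flag-CSE4* and −1.48 ± 0.54 without the library that stood apart, neither of which was called. Without that library 0 members were called in this strain. The median of −0.61 for *pGAL-3Flag-CSE4* includes that library and was not computed without it.

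The 12 group means of TLC1 lay between 53.8 ± 11.5 (*psh1Δ* t0, SD, n = 3) and 84.8 ± 12.2 CPM (*psh1Δ* t2), and the SD of the 5 genotypes with 3 cultures at t0 was 11.5 to 26.8 CPM.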

How the data were processed

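The 34 libraries were made from total RNA with the TruSeq RNA Sample Prep v2 kit and sequenced as single 50-base reads. The authors aligned reads to sacCer3 with TopHat2 2.1.0, counted them per gene with HTSeq 0.6.1, removed genes with low counts and tested with edgeR 3.12.0. The strand setting of the counting is not given in the sources used here. Genes the authors removed were not analysed here. Raw counts were read from the 8 deposited tables, and the 30 columns that repeat a library were identical to its first. The 64 deposited columns of CPM normalized by the authors were not used here, nor were the authors' deposited log2 fold changes, p-values, adjusted p-values and the score that marks called genes.

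Counts were scaled by TMM and fitted with edgeR 4.0.16 in R 4.3.3 (glmQLFit, glmQLFTest) over all 6209 genes, with Benjamini-Hochberg adjustment over all of them and no p-value from the members alone. All 57 members were tested. Batch comparisons had genotype as a term, and the comparison of times over all cultures had culture as a block. The comparison of times in WT alone and the comparisons of genotypes had no block. The interaction of batch and time had terms for group and for batch at each time, and none for culture. CPM in the text is TMM-normalized, and log2 of single libraries used a pseudocount of 0.5 CPM. Ratios of pooled counts have exact (Clopper-Pearson) 95% intervals, which cover counting error only, since reads without molecular identifiers are not independent molecules. Replicates were separate strains. Motif searches used the gene's ends on its own strand. The methods were checked on simulated data, with changes placed only in genes of higher mean level than most members have. The simulated libraries of a culture were drawn independently, so the check does not cover calls on few counts or the pairing of cultures.

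The labels give the replicate number as the batch, so same-numbered libraries share a batch. In 80 pairs of libraries of the same batch and time, deviations from group means correlated at −0.40 to 0.80 (median 0.40), over 0.1 in 64 pairs. In the 17 pairs of t0 and t2 from the same culture they correlated at −0.03 to 0.48 (median 0.18), over 0.1 in 10.

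Alternatives were DESeq2 1.42.0, its size factors, a filter of at least 10 counts in at least 3 libraries, leaving out each genotype or batch, batch as a block, 1 fit of all 34 libraries and, chosen after seeing the data, leaving out the library that stands apart in SCR1. The members and lists were chosen with earlier results of these data known. In a comparison with more than 5 called members the rule named the 5 with the largest log2 difference among those whose mean count was 10 or more where they were higher, with 5 or fewer all of them, and always the structural, long, U3, U14 and intronic RNAs and snR30. All other members named with values (snR4, snR5, snR9, snR11, snR13, snR31, snR45, snR49, snR60, snR81, snR83, snR86 and the extremes of level) were chosen after their values were seen. The chosen list counted snR39B as intronic in RPL7B, but the annotation places it in no intron, so no host is given.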

Additional observations from a re-analysis of the deposited data

Results flagged for a closer look

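In 7 members the batch 3 difference at t0 was larger than at t2, tested by the interaction of batch and time in edgeR without a term for culture. The difference between the 2 log2 values was 0.70 for TLC1, 0.95 for snR44, 1.51 for snR63, 2.31 for snR60, 1.18 for snR37, 1.15 for snR35 and 0.66 for snR4. For TLC1 the 11 cultures of batches 1 and 2 rose from t0 to t2, and those of batch 3 started higher. The part of strain, batch and depth in these values was not tested.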

How the results depend on the processing

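Counts of called members depend on the libraries used. Leaving out 1 genotype at a time gave 15 to 21 members in batch 3 at t0 (17 with all), 3 to 7 in the test of the batch difference between times (7 with all) and 0 to 2 between batches 2 and 1 at t0 (1 with all), where DESeq2 gave 0. Leaving out the library that stands apart in SCR1 gave 21, 7 and 2 in the same comparisons and 3 for t2 against t0 over all cultures (5 with all). For t2 against t0 the filter on low counts left 40 members and 3 calls, and leaving out 1 batch gave 2 to 14, without batch 1 snR45 and snR8 lower and none of the 5. In WT alone leaving out 1 batch gave 0 or 1 call and the block 1 (0 in the main fit). For *htz1Δ* at t0 (1 call) leaving out 1 batch gave 0 or 1, the replicate block 4 and 1 fit of all 34 libraries 2. For *htz1Δ* at t2 (3 calls) the filter gave 1, leaving out 1 batch 0 to 6, and the replicate block 4, adding SCR1 at −0.88. In t2 against t0 the fit without the block gave 4. The replicate block changed no other count by over 1.5 times. DESeq2 gave 16 members in batch 3 at t0 (15 of the 17), its size factors in edgeR 18 (all 17) and the filter 13 of 38 members. No called value changed sign. Without the library that stands apart, SCR1 (not called in these comparisons) went from 0.00 to 0.57 in batch 3 at t0, from −0.32 to 0.23 in the difference between times and from 0.39 to −0.04 between batches 2 and 1. Low counts limit most members, and the 3 counts of the detection limit are 0.439 to 0.571 CPM. The causes of these shifts were not tested.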
